A study of Macaca mulatta with 25 samples.

Results

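The transcripts of 10 genes of the NF-kB pathway were followed through blastocysts of rhesus macaques, hollow embryos about to implant. The set holds 5 subunits of the transcription factor (RELA, RELB, REL, NFKB1 and NFKB2) and 5 regulators (NFKBIA, NFKBIB, IKBKB, CHUK and TNFAIP3). Members were found by matching these symbols to the Ensembl identifiers of the count table, which gave 10 of 35395 genes. All 10 passed the filter on low counts, a level of 1 CPM (counts scaled to a common library total) or more in 5 or more libraries, which left 13934 genes for testing. The set was put forward with the low level of RELA in the embryos with both treatments already known, so RELA was chosen by its CPM in those embryos. These values are therefore given as a description, with no test.

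NF-kB is a family of transcription factors whose subunits act as pairs. In resting cells, inhibitor proteins of the IκB family hold the pairs in the cytoplasm. Signals from cytokine and pattern-recognition receptors reach the IκB kinases, which mark the inhibitors for destruction, so that the pairs enter the nucleus. Several inhibitors are themselves targets, which closes a negative feedback loop. Transcript levels of subunits and inhibitors do not show where the proteins are or whether the pathway is active.

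The mothers of the embryos were 4 groups of females, 10 each, treated from 2.5 years of age, before puberty, for 5 to 6 years. C females carried cholesterol implants and ate chow with 15% fat, 59% carbohydrate and 26% protein. T females carried testosterone implants on that chow. WSD females ate a Western-style diet with 36% fat, 46% carbohydrate and 18% protein, and TWSD females had testosterone and that diet. Stimulation of the ovaries was carried out in 10 C, 7 T, 6 WSD and 3 TWSD females, the eggs were fertilised in the laboratory with semen of proven males, and embryos were kept for up to 8 days before the outer coat was removed. Controls gave 5 libraries (C 1, C 2, C 8, C 11 and C 12), testosterone 10, the diet 8, and both together 2 (TWSD 2 and TWSD 3). Mother, father and batch are not given per library, nor whether a library is a single embryo. All p-values therefore measure the spread between libraries, which may share parents.

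Total counts ran from 14219054 to 35544542 per library. Levels below are CPM scaled by TMM factors (which adjust for library composition). These are bulk samples, so fewer cells of a type and less RNA per cell cannot be told apart. Libraries C 8, C 11, C 12, T 1 and TWSD 2 stood apart and are named before the results. C 8, C 11 and C 12 had summed levels of 10 syncytiotrophoblast markers (the fused outer layer of the placenta) of 4312 to 12340 CPM. In C 1 and C 2 the sums were 288.4 and 611.8, in T 379.5 to 4944, highest in T 1, in WSD 451.6 to 1071 and in TWSD 90.52 and 530.8. All 9 measured epiblast markers (the cells that form the embryo proper) together reached 16.84 to 645.8 in C 8, C 11 and C 12 and 592.7 to 2321 in the other libraries. The 10 stress genes, a list drawn up with earlier results of these data known, summed to 1883 to 18750 in C 8, C 11 and C 12, highest in C 12, and 362.6 to 779.1 elsewhere. TWSD 2 had 19.2% of 9230 well-expressed genes more than 10-fold under the gene's median over libraries. C 12 had 14.6%, TWSD 3 had 0.921%, and the others had 0.163% to 4.97%. All 7 measured trophectoderm markers were detected in every library, summing to at least 1763. Sperm markers summed to 4.772 at the most. Of 10 leukocyte markers, 6 to 10 were detected per library, and the sum was 11.89 to 64.2 except in C 11, at 248.9. There CD14 reached 231 CPM, while PTPRC, the common leukocyte antigen, had no count in 13 of 25 libraries and 1.97 at the most. C 11 also had the highest sums of 9 cumulus and granulosa cell markers, at 1326 beside 43.62 to 173.2 elsewhere, and of 8 measured primitive endoderm markers, at 18040 beside 489.2 to 5167. Of these 9, VCAN, HAS2, TNFAIP6 and INHA were highest in C 11, at 643, 257, 204 and 182 CPM. FSHR, AMH, STAR, LHCGR and FOXL2 were highest in other libraries. FSHR, a defining granulosa marker, had no count in 18 of 25 libraries, all controls among them, and 0.281 CPM at the most. The part of these cell types in the levels of RELA and NFKB1 in C 11 was not tested.

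RELA (ENSMMUG00000007418) encodes the main activating subunit, which carries a transactivation domain. Among controls, C 2 and C 8 held 23.4 and 28.6 CPM, C 1 held 55.4, C 11 held 89.1 and C 12 reached 226. In T libraries the lowest, median and highest values were 12.4, 23.7 and 36.3, and in WSD 18.5, 31.5 and 38.4. TWSD 2 held 2.45 CPM (38 counts) and TWSD 3 held 0.899 (25 counts). Their 95% Wilson intervals, which cover counting error alone, were 1.78 to 3.36 and 0.609 to 1.33. Both TWSD libraries lay below all 23 others, and the lowest of these was 5.08 times the higher TWSD value. C 1, C 11 and C 12 were above every T and WSD library.

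RELA fell 3.46-fold in T against C, a log2 change of -1.79 ± 0.37 (SE; adjusted p = 0.0092, quasi-likelihood test of edgeR, adjusted by Benjamini-Hochberg). It fell 2.84-fold in WSD against C, with -1.51 ± 0.39 (edgeR adjusted p = 0.0306). Both comparisons share the controls, and both calls ended without C 12, the highest library, at -1.01 (adjusted p = 0.147) and -0.72 (adjusted p = 0.364). Without C 8, C 11 and C 12 the changes were -0.66 and -0.37 (adjusted p = 0.998 and 0.939). The WSD call also ended without WSD 3, WSD 6, WSD 9 or WSD 10 (adjusted p from 0.0515 to 0.0579). T and WSD differed by -0.29 ± 0.33 (adjusted p = 1), which does not show that they were alike.

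The description for TWSD is a log2 difference in RELA level of -5.67 ± 0.83 against C, -3.87 ± 0.74 against T and -4.16 ± 0.76 against WSD. Left out in turn, single libraries moved the difference from C between -6.54 (without TWSD 2) and -4.88 (without C 12). It was -4.55 with C 8, C 11 and C 12 left out. Each TWSD library showed the low value by itself, which the choice of RELA by these values fixed in advance. TWSD 2 was also the library with 19.2% of 9230 well-expressed genes more than 10-fold under their median. The part of this in its RELA value was not tested. The interaction, the change from T to TWSD less that from C to WSD, was -2.37 ± 0.76 on the log2 scale. Over all genes tested, 108 of 13934 (0.775%) had both TWSD libraries below all 23 others, and 24 (0.172%) did so by at least RELA's factor of 5.08. RELA was chosen for this pattern, so nothing is read from its place among them.

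**Figure D1:**
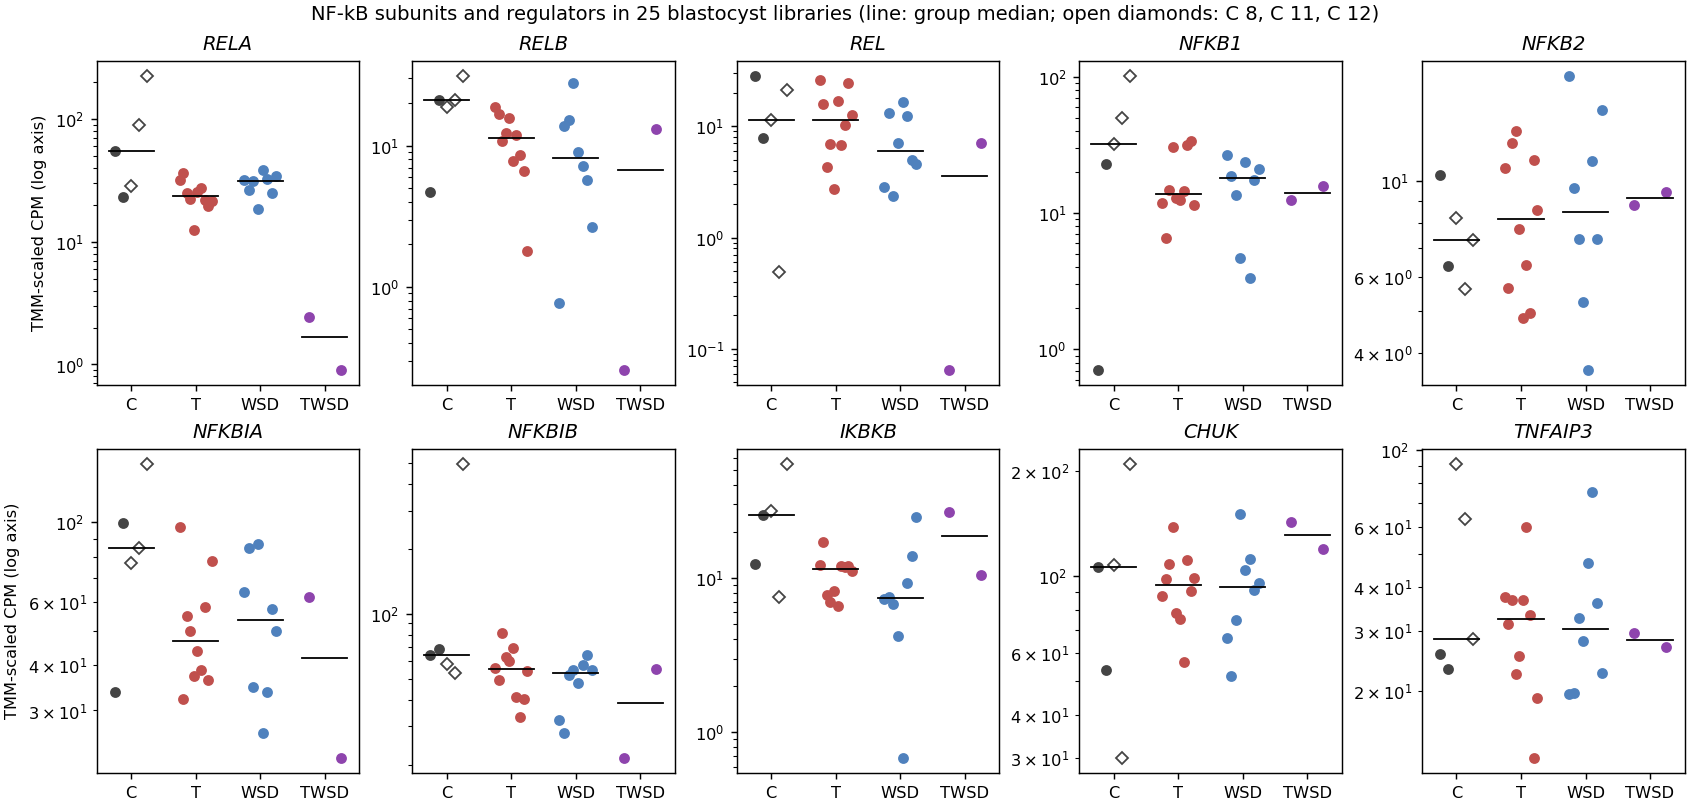
Level of each of the 10 genes (TMM-scaled CPM, log axis) in each library, grouped as C, T, WSD and TWSD. RELA is the gene in which both TWSD libraries, at 2.45 and 0.899 CPM, lie below all 23 others, and C 12 is the highest library in 7 of the 10 genes.

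The genes beside RELA were read in all libraries, a set chosen after values had been seen. Their order comes from the RefSeq annotation of T2T-MMU8v2.0, a build other than that of the counts, so no coordinates are given. On one side lie AP5B1, RNASEH2C and KAT5, and on the other SIPA1, PCNX3 and MAP3K11. In TWSD 3 they were at 34.8, 27.9, 47.8, 35.3, 7.51 and 44.9 CPM in that order, all 6 inside the range of the 23 other libraries. In TWSD 2 RNASEH2C was at 64.4, just above all others, KAT5 and SIPA1 at 57.4 and 20.7, inside their range, while AP5B1, PCNX3 and MAP3K11 were at 0.193, 0.0644 and 0.193, below all 23 others. The low value of RELA in TWSD 3 was thus not shared by these neighbours, and 3 of 6 were low in TWSD 2. The RefSeq model of RELA overlaps KAT5 and a long non-coding RNA. The strand setting of the counting is not given, so reads in the overlap cannot be told apart.

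**Figure D2:**
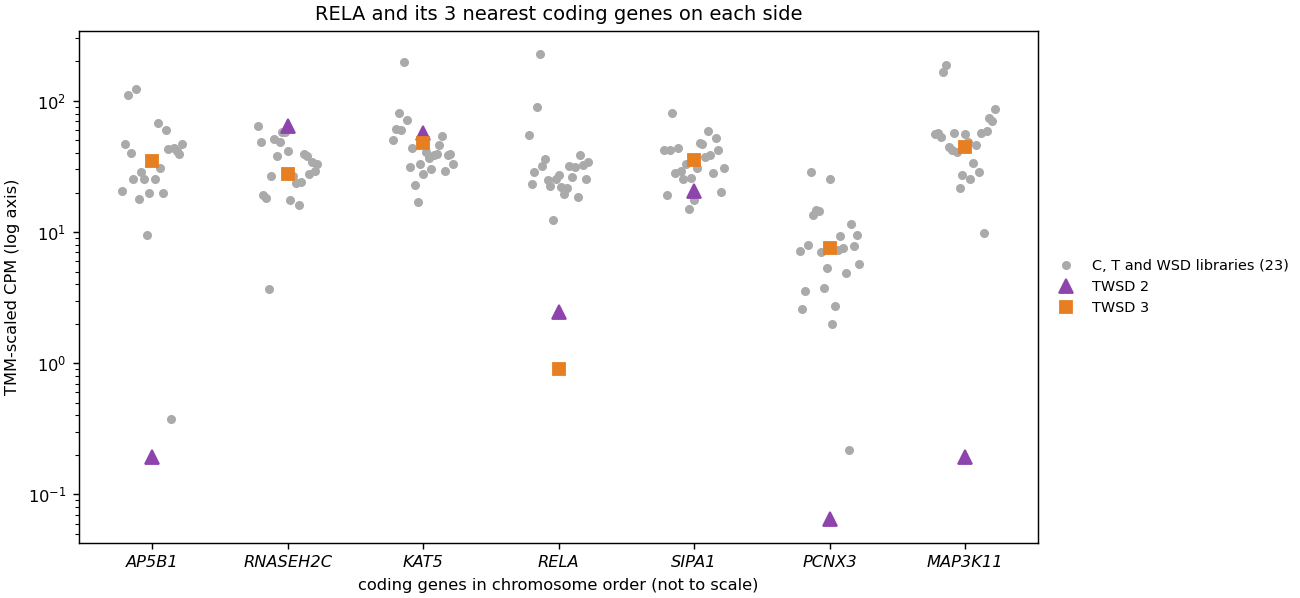
Levels (TMM-scaled CPM, log axis) of RELA and the 3 genes on each side of it in RefSeq order, with the 23 C, T and WSD libraries as grey points, TWSD 2 as triangles and TWSD 3 as squares. TWSD 3 is below the other libraries in RELA alone (0.899 CPM), and TWSD 2 also in AP5B1, PCNX3 and MAP3K11.

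By Spearman correlation of log2 CPM over the 25 libraries, the 5 genes with the pattern most like RELA's were NAA60 (0.878), CIC (0.836), REXO1 (0.828), JUND (0.815) and PNMA1 (0.812). Their Pearson correlations were 0.628 to 0.702, and without the TWSD libraries the Spearman values were 0.783 to 0.868 over 23 libraries. JUND, a subunit of the AP-1 transcription factor, had 198.2 to 476.2 CPM among controls, 52.92 to 298.1 with testosterone, 86.65 to 202.1 with the diet, and 3.994 and 90.59 with both. CIC, a transcriptional repressor, ranged from 12.61 to 46.61 in C and was at 1.675 and 7.585 in TWSD. These points share library, depth and composition, so the values are descriptions.

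RELB (ENSMMUG00000014153), the subunit of the non-canonical branch that pairs with the product of NFKB2, was lowest among controls in C 1 at 4.70 CPM, with 21.0, 18.9, 21.0 and 31.2 in C 2, C 8, C 11 and C 12. T libraries had a lowest, median and highest value of 1.78, 11.3 and 18.8, and WSD libraries 0.769, 8.16 and 27.7. TWSD 3 was at 13.1, within the range of every other group, and TWSD 2 at 0.258, from 4 counts. The log2 change was -0.80 ± 0.66 in T, -0.92 ± 0.69 in WSD and -1.53 ± 1.12 in TWSD, each against C (edgeR adjusted p = 0.581, 0.536 and 0.424). The TWSD libraries thus differed 50.9-fold from each other in RELB.

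REL (ENSMMUG00000010834), the subunit best known from lymphocytes, was at 28.4, 7.80, 11.3, 0.487 and 21.4 CPM in C 1, C 2, C 8, C 11 and C 12. Its lowest, median and highest values were 2.75, 11.4 and 26.3 in T and 2.35, 6.01 and 16.7 in WSD. TWSD 3 held 7.01 CPM and TWSD 2 held 0.0644, a single count. C 11, at 0.487, was also far under the other controls. The log2 change was -0.13 ± 0.73 in T, -0.79 ± 0.76 in WSD and -1.96 ± 1.27 in TWSD, each against C (edgeR adjusted p = 0.959, 0.656 and 0.357).

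The size of the change of RELB and REL in TWSD, and whether it passed, depended on which of the 2 libraries was used. Without TWSD 3, which leaves a lone TWSD library assumed to vary like the other groups, both passed against C, at -6.20 for RELB (edgeR adjusted p = 0.0188) and -7.62 for REL (adjusted p = 0.0174). Without TWSD 2 they were at -0.56 and -0.97 and did not pass. TWSD 2 was also the library with the largest share of genes far under their median, given above, and the part of this in the low values was not tested.

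NFKB1 (ENSMMUG00000003736), the precursor of the subunit that most often pairs with the product of RELA, spread most among the controls. C 1 held 0.705 CPM, C 2 and C 8 held 22.7 and 32.3, C 11 held 50.0 and C 12 reached 101. T libraries had a lowest, median and highest value of 6.56, 13.7 and 33.8, WSD libraries 3.32, 18.1 and 26.5, and the TWSD libraries were at 12.4 and 15.9. The lowest and the 2 highest of the 25 values were thus all controls. The log2 change was -1.20 ± 0.58 in T and -1.37 ± 0.62 in WSD against C (edgeR adjusted p = 0.274 and 0.227), and -1.55 ± 1.01 in TWSD (adjusted p = 0.36). Without C 1, NFKB1 passed in T at -1.51 (adjusted p = 0.0483) and in WSD at -1.68 (adjusted p = 0.0408), and without C 8, C 11 and C 12 the changes turned to 0.66, 0.50 and 0.29 in T, WSD and TWSD.

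NFKB2 (ENSMMUG00000002990), the precursor subunit of the non-canonical branch, varied least among the subunits. Controls ranged from 5.62 to 10.3 CPM, T libraries from 4.82 to 13.1 and WSD libraries from 3.66 to 17.5, and the TWSD libraries held 8.83 and 9.45. All 4 groups overlapped. The log2 changes against C were 0.17 ± 0.41 in T, 0.34 ± 0.43 in WSD and 0.27 ± 0.61 in TWSD (edgeR adjusted p = 0.886, 0.757 and 0.82).

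Of the IκB inhibitors, NFKBIA (ENSMMUG00000020374), which encodes IκBα and is a classical target of the pathway, was at 33.7, 99.6, 76.8, 84.5 and 145 CPM in C 1, C 2, C 8, C 11 and C 12. The lowest, median and highest values were 32.3, 46.8 and 96.7 in T and 25.9, 53.6 and 87.1 in WSD. TWSD 2 was at 62.0 and TWSD 3 at 22.1, the lowest of all 25 libraries. The log2 changes against C were -0.74 ± 0.34 in T, -0.68 ± 0.35 in WSD and -1.07 ± 0.56 in TWSD, and none passed (edgeR adjusted p = 0.231, 0.308 and 0.261).

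NFKBIB (ENSMMUG00000023643), which encodes IκBβ, was at 64.6 and 68.5 CPM in the libraries C 1 and C 2, at 58.6 and 52.9 in C 8 and C 11, and at 493.5 in C 12. The lowest, median and highest values were 33.1, 55.2 and 81.6 in T and 27.9, 53.4 and 64.4 in WSD, and TWSD 2 and TWSD 3 were at 21.4 and 55.4. Apart from C 12, the control values lay inside the range of T. NFKBIB fell in T, with a log2 change of -1.43 ± 0.40 (edgeR adjusted p = 0.0402), and in WSD, with -1.59 ± 0.42 (adjusted p = 0.0327), and was lower by -1.94 ± 0.71 in TWSD without passing (adjusted p = 0.127). Without C 12 the changes of NFKBIB in T and WSD were -0.16 and -0.33 (adjusted p = 0.887 and 0.705). Leaving out T 3, T 5, T 6, T 8, T 9, T 10 or T 11 also ended the T call (adjusted p from 0.0508 to 0.068), and WSD 1, WSD 3, WSD 7 or WSD 10 the WSD call (0.0557 to 0.0619).

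IKBKB (ENSMMUG00000008351) encodes IKKβ, the kinase that marks IκBα in the canonical branch. It was at 12.3, 25.6, 27.4, 7.50 and 55.0 CPM in C 1, C 2, C 8, C 11 and C 12. The lowest, median and highest values were 6.61, 11.5 and 17.1 in T and 0.679, 7.43 and 24.96 in WSD, and TWSD 2 and TWSD 3 were at 26.8 and 10.5. C 2, C 8 and C 12 were above every T library, and TWSD 2 was above every T and WSD library. The log2 changes against C were -1.27 ± 0.51 in T, -1.45 ± 0.54 in WSD and -0.45 ± 0.82 in TWSD (edgeR adjusted p = 0.164, 0.128 and 0.773). DESeq2 called the WSD change, at -1.58 (adjusted p = 0.0376). The interaction was 2.27 ± 0.87, with an unadjusted p of 0.0145 and an edgeR adjusted p of 0.241.

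CHUK (ENSMMUG00000018476), which encodes IKKα, the kinase of the non-canonical branch, was at 106, 53.9, 108, 30.0 and 210 CPM in C 1, C 2, C 8, C 11 and C 12. Its lowest, median and highest values were 56.8, 94.4 and 138 in T and 51.7, 93.3 and 151 in WSD, and TWSD 2 and TWSD 3 were at 143 and 119. Controls spanned all other groups. The log2 changes against C were -0.11 ± 0.31 in T, -0.12 ± 0.32 in WSD and 0.37 ± 0.47 in TWSD (edgeR adjusted p = 0.91, 0.903 and 0.661). In T and WSD the sign turned with library totals in place of TMM factors, to 0.13 and 0.08.

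TNFAIP3 (ENSMMUG00000008869) encodes A20, a ubiquitin-editing enzyme that switches the signal off and is itself a target. It was at 25.6, 23.3, 91.1, 63.1 and 28.4 CPM in C 1, C 2, C 8, C 11 and C 12. The lowest, median and highest values were 12.8, 32.4 and 59.7 in T and 19.7, 30.3 and 75.6 in WSD, and TWSD 2 and TWSD 3 were at 29.5 and 26.9. C 8 was the highest of all libraries, and the TWSD values lay inside the range of every other group. The log2 changes against C were -0.55 ± 0.37 in T, -0.40 ± 0.39 in WSD and -0.72 ± 0.60 in TWSD (edgeR adjusted p = 0.472, 0.67 and 0.491).

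**Figure D3:**
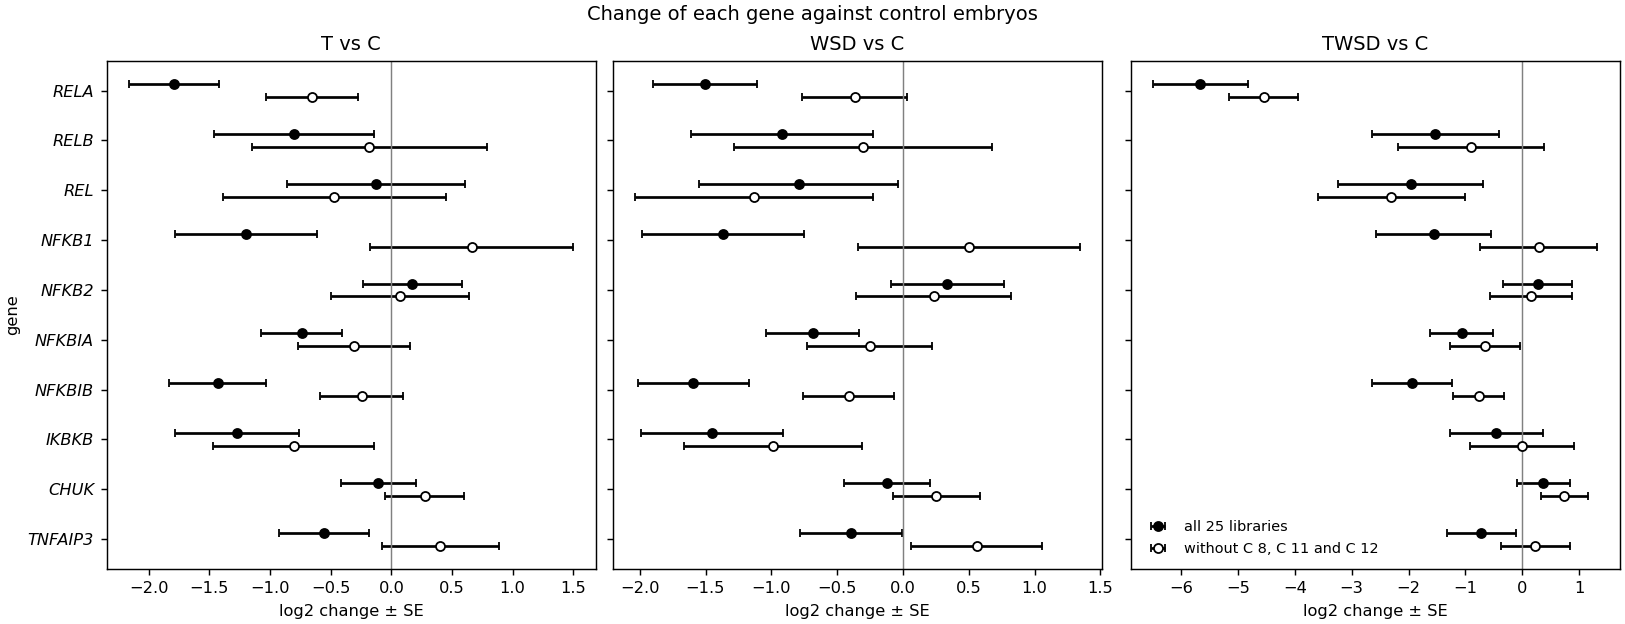
Log2 change of each of the 10 genes with its SE, for T, WSD and TWSD against C, over all 25 libraries (filled) and without C 8, C 11 and C 12 (open). RELA in TWSD is a description at -5.67, and the changes of RELA and NFKBIB in T and WSD passed the test over all libraries but not without those 3.

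Counted together, 2 of 10 members fell and 0 rose in T against C, RELA and NFKBIB, where 3.77% of all genes tested fell and 4.11% changed in either direction. The same 2 genes fell in WSD against C, where 3.6% of all genes fell and 4.07% changed. The median log2 change of the 10 members was -0.77 in T and -0.85 in WSD, beside -0.12 over all genes tested in both. At an unadjusted p under 0.05 there were 5 of 10 members in T and 4 in WSD, beside 18.3% of all genes in both. DESeq2 gave NFKBIB no adjusted p in any comparison, and so no call. Its log2 changes there were -1.59 ± 0.44 in T and -1.76 ± 0.46 in WSD. Like those of edgeR, these changes include C 12, at 493.5 CPM beside 52.9 to 68.5 in the other controls. Of the 9 other members DESeq2 called 1 in T (RELA) and 2 in WSD (RELA and IKBKB), beside 8.58% and 9.63% of the genes it gave an adjusted p. Limma's voom called 0 members and 0% of all genes in both.

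In TWSD against C, 0 of the other 9 members passed edgeR's test, 1 had an unadjusted p under 0.05 (NFKBIB), and voom called 0. DESeq2 called 0 of the 8 it gave an adjusted p. Over all genes 1.2% passed edgeR's test, 22% had an unadjusted p under 0.05, DESeq2 called 14.6% and voom 0%. The median log2 change of these 9 was -1.07, beside -0.38 over all genes. Against T and against WSD, 0 of 9 passed in edgeR or voom and 0 of 8 in DESeq2, where 0.0502% of all genes passed edgeR's test in each, voom called 0%, and DESeq2 called 4.27% against T and 4.21% against WSD. There 0 of the 9 had an unadjusted p under 0.05, beside 13.3% and 13.6% of all genes. In simulated counts on these libraries, TWSD against C recovered 0% of 2-fold and 48% of 8-fold changes, and T against C 12% and 77%, so a 2-fold change could not be shown with 2 libraries. For the interaction 0 of 9 passed in edgeR or voom and 0 of 8 in DESeq2, beside 0.0718%, 0% and 2.89% of all genes. IKBKB was the 1 member with an unadjusted p under 0.05, beside 13.6% of all genes. T and WSD differed in 0 of 10 members in edgeR or voom and 0 of 9 in DESeq2, beside 0%, 0% and 0.044% of all genes, and 0 members had an unadjusted p under 0.05, beside 1.7%. RELA was the member whose groups did not overlap between TWSD and C, T and WSD, where 12%, 5.88% and 7.61% of all genes did not overlap, and it was chosen for that.

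Among the members' 250 values, 8 (3.2%) were more than 10-fold under the gene's median, beside 2.33% over the 9230 well-expressed genes. They were NFKB1 in C 1, REL in C 11, RELB in WSD 1, IKBKB in WSD 7, RELA in both TWSD libraries, and RELB and REL in TWSD 2. The RELA values are those that chose the gene. Without RELA the count was 6 of 225 (2.67%), with RELB and REL in TWSD 2 and the other 4 in C 1, C 11, WSD 1 and WSD 7. Over all well-expressed genes, 37 (0.401%) were this low in both TWSD libraries. At the other end, C 12 was the highest of 25 libraries in RELA, RELB, NFKB1, NFKBIA, NFKBIB, IKBKB and CHUK. C 12 also held the highest sum of stress genes, as given above, and the part of this in the members' levels was not tested.

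**Figure D4:**
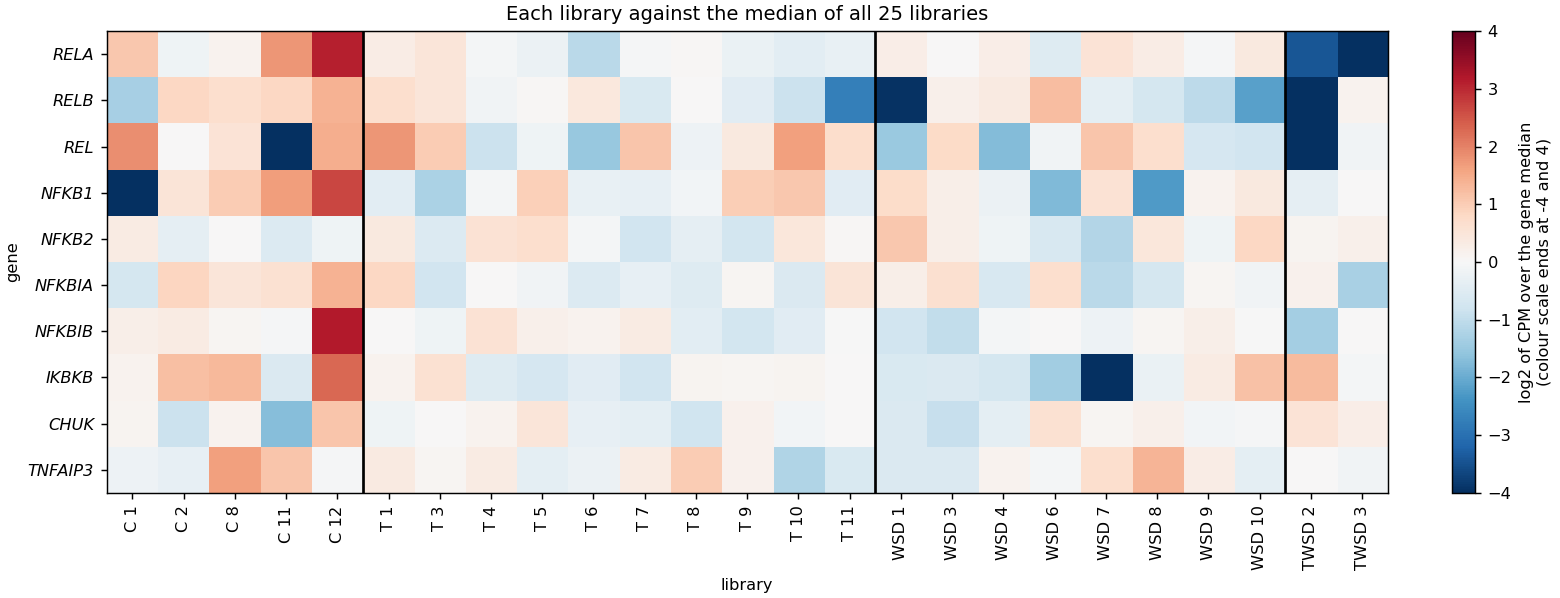
Log2 CPM of the 10 genes in the 25 libraries, each gene relative to its own median over libraries, with libraries ordered by group. The colour scale ends at -4 and 4. C 12 is the highest library in 7 genes, and the values more than 10-fold under the median are RELA, RELB and REL in TWSD 2, RELA in TWSD 3 and 4 scattered ones.

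Of the 45 pairs of members over 25 libraries, 0 passed by Pearson or by Spearman correlation of log2 CPM (permutation tests, Benjamini-Hochberg adjusted over the 45), with 7 and 2 at an unadjusted p under 0.05. RELA with NFKBIB and RELA with NFKBIA are among the 7. Pairs with RELA include the TWSD values that chose it, so their values are a description and nothing is read from their place. The median Pearson correlation was 0.099, and 26 pairs were positive. The largest Pearson value was RELA with NFKBIB, at r = 0.515 and rho = 0.112, a pair in which C 12 is the highest library of both genes. Without TWSD 2 and TWSD 3, farthest from the median of RELA, r was 0.652, and within T and WSD it was -0.0191 and -0.0797. The smallest permutation p was for NFKBIA with IKBKB, at r = 0.431 (permutation p = 0.028, adjusted p = 0.297) and rho = 0.222 (permutation p = 0.285, adjusted p = 0.969). Without C 12 and TWSD 3, farthest from the median of NFKBIA, r was 0.336, and within T and WSD it was -0.0404 and 0.385.

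The wider pathway was read from 97 listed genes, of which 94 matched and 73 were tested, in 5 lists chosen with earlier results of these data known. In T against C, 8 fell and 0 rose (11% fell, beside 3.77% of all genes), and in WSD against C 6 fell and 0 rose (8.22%, beside 3.6%). In TWSD against C 2 fell and 0 rose (2.74%, beside 0.337%). By role, 0 of 4 ligands and 0 of 23 receptors and adaptors passed in T or WSD, where 0 and 4 had an unadjusted p under 0.05 in T, and 1 and 4 in WSD, beside 18.3% of all genes in each. Of 14 kinases and ubiquitin enzymes that switch the pathway on, 2 fell in T and 1 in WSD. Of 14 other inhibitors, 3 fell in T and 3 in WSD, and of 18 target genes, 3 and 2.

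PDLIM2, a ubiquitin ligase that ends RELA activity in the nucleus, fell in all 3 comparisons with controls, with log2 changes of -3.51 ± 0.58 in T (edgeR adjusted p = 0.00311), -3.56 ± 0.63 in WSD (0.00474) and -5.04 ± 1.23 in TWSD (0.0387). C 1 and C 2 held 12.27 and 72.96 CPM, and C 8, C 11 and C 12 held 1128, 491.8 and 1125. T libraries held 21.40 to 89.62, WSD 26.06 to 73.84, and TWSD 2 and TWSD 3 4.38 and 29.94. C 1 and C 2 were thus no higher than the highest T library.

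ZC3H12A, an RNase that destroys inflammatory transcripts, fell in the same 3 comparisons, with log2 changes of -2.22 ± 0.61 in T (edgeR adjusted p = 0.0358), -2.69 ± 0.65 in WSD (0.021) and -5.23 ± 1.32 in TWSD (0.047). C 12 held 318.6 CPM and the other controls 8.661 to 21.32, while T held 6.604 to 24.67 and WSD 4.27 to 22.55. TWSD 2 and TWSD 3, at 0.2577 and 3.81, were below every other library, a pattern of 108 of 13934 genes tested (0.775%). The lowest of the others was WSD 6, at 4.27. IKBKG, the scaffold subunit of the IκB kinase complex, fell in T, with a log2 change of -1.82 ± 0.52 (adjusted p = 0.0423) and in WSD by -2.19 ± 0.55 (0.0249), with C 12 at 608.5 and all other controls at 33.05 to 49.94. GADD45B, a stress-inducible target, was at 1075 in C 12 and 6.915 to 27.54 in the other controls.

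BCL2L1, a survival gene among the targets, fell in T, with a log2 change of -1.23 ± 0.34 (edgeR adjusted p = 0.0358), with 220.3 CPM in C 12 and 49.37 to 77.64 in the other controls. MAP3K7, the kinase TAK1 upstream of the IκB kinases, fell in T, with a log2 change of -1.12 ± 0.32 (adjusted p = 0.0423), with 152.7 in C 12 and 35.18 to 49.87 in the others. GADD45B fell in T, with a log2 change of -2.84 ± 0.70 (adjusted p = 0.0225) and in WSD by -2.95 ± 0.76 (0.0284). PTGS2, the prostaglandin synthase COX-2, fell in T, with a log2 change of -5.87 ± 1.60 (adjusted p = 0.0362). C 8, C 11 and C 12 held 58.78, 74.73 and 144.8 CPM, with 0 counts in C 1 and C 2, which allows up to 0.176 and 0.195 CPM. ITCH, a ubiquitin ligase that works with A20, fell in T, with a log2 change of -0.88 ± 0.26 (adjusted p = 0.0499), and was highest in C 8 at 246.1 and C 12 at 177.8.

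In WSD, TNIP1, an A20 partner, fell, with a log2 change of -1.83 ± 0.45 (edgeR adjusted p = 0.0231), with 364.4 CPM in C 8 and 33.55 to 100.5 in the other controls. XIAP, an inhibitor of caspases, fell, with a log2 change of -3.77 ± 1.07 (adjusted p = 0.0436), with 298.6 and 191.9 in C 8 and C 12. With C 8, C 11 and C 12 left out, 0 of the 73 pathway genes passed in T, WSD or TWSD against C. These were also the libraries with the highest sums of syncytiotrophoblast and stress genes among controls, and the part of these in the pathway values was not tested. Without C 12 alone, 1 of 73 passed in T and 1 in WSD.

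Several of these calls sat close to the threshold, and leaving out 1 library ended them. In T, C 12 ended the calls of GADD45B, ZC3H12A, BCL2L1, PTGS2, MAP3K7, IKBKG and ITCH. ZC3H12A also lost its call without T 4, 5, 7, 8, 9, 10 or 11, BCL2L1 without T 3, 5, 6, 7, 9 or 10, and PTGS2 without C 11 or T 3, 4, 5, 7, 8, 9, 10 or 11. MAP3K7 lost it without C 11, T 3, 4, 5, 6, 8, 9, 10 or 11, or WSD 3, 7, 9 or 10, and IKBKG without T 3 to T 11, WSD 1 or WSD 9. ITCH lost it without C 8, T 3 to T 11 or any WSD library. In WSD, C 12 ended the calls of ZC3H12A, TNIP1, IKBKG, GADD45B and XIAP. TNIP1 also lost its call without C 8, IKBKG without WSD 7, GADD45B without WSD 1, 3, 7 or 10, and XIAP without C 8, T 3, 4, 9 or 11, or any WSD library. In TWSD, PDLIM2 lost its call without C 8, C 11 or TWSD 2, and ZC3H12A without T 4, 5, 6, 7, 10 or 11, WSD 1, 4, 7, 8, 9 or 10, or TWSD 2. In T and WSD against C, PDLIM2 passed whichever 1 library was left out.

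The filter asked for 1 CPM in 5 libraries, so no gene passed it through the 2 TWSD libraries alone. The mean log2 CPM over the 18 tested targets was -0.60 in TWSD 2 and 0.42 in TWSD 3. Controls ranged from 1.12 to 3.93, T libraries from 1.07 to 2.98 and WSD libraries from 1.12 to 2.53. Both TWSD means thus lay below all 23 others, though none of these targets passed edgeR's test in TWSD against C. No count was found for 8 of the 18 in TWSD 2 and 5 in TWSD 3. In C this held for 1 to 4 targets per library, and in T and WSD for 0 to 5. How many other sets of 18 genes do the same was not counted. TWSD 2 was also below every other library in receptors and adaptors, at 0.79 beside 1.85 to 3.83 in C, T and WSD, and in other inhibitors, at 2.97 beside 3.89 to 5.73. TWSD 3, at 3.04 and 4.90, lay inside those ranges. Kinases and ubiquitin enzymes were at 5.17 and 5.75 in TWSD, beside 5.03 to 5.95.

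**Figure D5:**
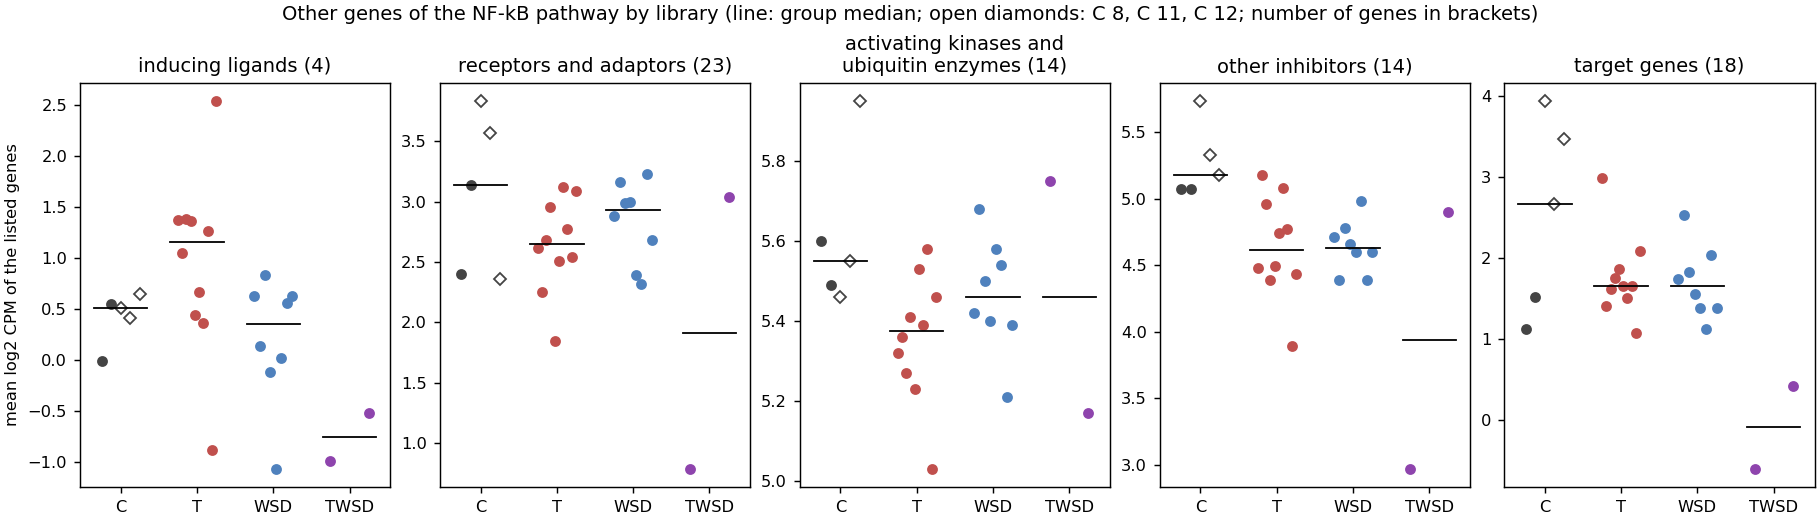
Mean log2 CPM of the tested genes of each of 5 pathway lists in each library, by group. No gene passed the filter through the TWSD libraries alone. In the target genes both TWSD libraries (-0.60 and 0.42) lie below every other library, with no count for 8 and 5 of these 18 genes. In the kinases and ubiquitin enzymes they lie among the others.

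In TWSD against C, 16 of 18 targets were lower, with a median log2 change of -4.19, beside -0.38 over all genes tested. Those genes were not matched to the targets by level. Medians of the other lists ran from -6.31 in 9 tested syncytiotrophoblast markers to 1.12 in 9 epiblast markers. No count was found in either TWSD library for 5 targets: ICAM1, VCAM1 and SELE, which encode adhesion molecules of inflamed endothelium, PTGS2 and TNFAIP2. A count of 0 allows up to 0.193 CPM in TWSD 2 and 0.108 in TWSD 3. ICAM1 reached 4.220 CPM in C, 10.66 in T and 11.73 in WSD, but C 1, C 11 and T 10 also had none. VCAM1, SELE, PTGS2 and TNFAIP2 likewise had no count in some libraries of each of C, T and WSD. A lack of counts for these genes was thus not particular to TWSD. With these 5 set at an upper bound of 3 counts over both TWSD libraries together, the median was -3.69. In edgeR's test 0 of 18 passed, 10 had an unadjusted p under 0.05, beside 22% of all genes, and DESeq2 called 9 of the 17 it gave an adjusted p, beside 14.6%. IER3, an early response gene, was at -3.99 ± 1.51 (edgeR adjusted p = 0.138), and CCND1, cyclin D1, at -8.42 ± 3.96 (adjusted p = 0.213). In CPM of library totals, CCND1 was at 0.99, 0, 44.8, 215.6 and 4.34 in C 1, C 2, C 8, C 11 and C 12. Its TWSD values, 0.098 and 0.187, lay inside the ranges of T and WSD, where T 6, T 10, WSD 6 and WSD 9 had 0. IL6, a cytokine, and SOD2, the mitochondrial superoxide dismutase, were the 2 targets not lower, at 1.84 ± 1.35 and 0.07 ± 0.66 (adjusted p = 0.421 and 0.959). For IL6 the TWSD libraries differed, with 16.2 CPM of library totals in TWSD 2 and 0.899 in TWSD 3. With DESeq2 size factors 17 of 18 were lower.

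Against T, 16 of 18 targets were lower in TWSD (median -2.96, or -2.69 with genes at their bound), and against WSD 15 of 18 (median -2.21), beside -0.19 over all genes tested in both. Without TWSD 2 the medians against C, T and WSD were -3.71, -2.81 and -2.24. With C 8, C 11 and C 12 left out the median against C was -1.21. With no filter, 27 targets gave medians of -3.46, -2.19 and -1.08 against C, T and WSD. Over all genes those fits gave medians of -0.51, -0.79 and -0.64. Many of these genes carry few counts, and 0 passed edgeR's test in any of the 3 comparisons, with 2 at an unadjusted p under 0.05 against T and 2 against WSD, beside 13.3% and 13.6% of all genes. DESeq2 called 3 of 17 in each of those, beside 4.27% and 4.21%.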

How the data were processed

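RNA was sequenced from the blastocysts, and the authors deposited 1 table of unnormalized whole-number counts for each gene. Per the submitters' processing notes, FastQC 0.11.8, Trimmomatic 0.39, STAR 2.7.0 and the build Mmul_10 were used. Counting tool, annotation release and strand setting: not given in the sources used here. A symbol table named 24173 of 35395 genes. A level of 1 CPM or more in 5 or more libraries was asked of each gene, which left 13934. All 25 libraries entered 1 fit (edgeR 4.0.16, R 4.3.3) with TMM factors and the 4 groups as the only term. Comparisons used the quasi-likelihood test, with Benjamini-Hochberg adjustment over all 13934 genes and a threshold of 0.05. DESeq2 1.42.0 and limma 3.58.1 (voom with quality weights) were alternatives, and the fits were tested on simulated data. Members, lists and tests were chosen with earlier results of these data known. Named genes are the 10 members, pathway genes that passed (at most 12 per comparison, by smallest p), markers that show which libraries hold a cell type, and the 5 genes with the highest Spearman correlation with RELA. The neighbours of RELA and the targets ICAM1, VCAM1, SELE, TNFAIP2, IER3, CCND1, IL6 and SOD2 were named after values were seen, as was the test of single pathway genes under the alternatives. Libraries were checked for repeats, and over 300 pairs the smallest chi-square per gene was 65.5. A CPM of 1 is 14.2 counts in the shallowest library.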

Additional observations from a re-analysis of the deposited data

Results flagged for a closer look

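Of 30 groups of 5 to 10 libraries tested for a lone extreme CPM, with no log taken, 2 stood out. The critical values give about 1 in 20 by chance for values with a normal spread, which CPM with no log taken need not have. The groups also share libraries, so nothing is read from 2 of 30. NFKBIB in C 12, at 493.5 CPM, was the highest of 5 controls, and the gap to the next (68.53 in C 2) was 0.964 of the whole range, over a critical value of 0.71. TNFAIP3 in T 8, at 59.67 CPM, was the highest of 10 T libraries, with a gap to T 1 (37.46) of 0.474 of the range, just over the critical value of 0.466.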

How the results depend on the processing

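Depth limits low values: a CPM of 1 is 14.2 counts in the shallowest library, and RELA in TWSD rests on 38 and 25 counts. Only 2 TWSD libraries and 5 controls were measured, and the controls spread widely. Each count below is of genes that passed, in the order all genes, pathway genes, members where all 3 moved. The cause of each change was not tested.

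In T against C the counts were 573, 8 and 2. They were 240, 1 and 1 with library totals, and 0, 0 and 0 with voom, with C 8, C 11 and C 12 left out, and with T 1 left out besides. DESeq2 called 1102 genes and 1 member, and no filter left 3 pathway genes. Leaving out single libraries gave 40 (without C 12) to 1287 (without C 1) genes, 1 to 12 pathway genes and 0 to 3 members. In WSD against C (567, 6 and 2) library totals gave 321, 2 and 0, voom 0, 0 and 0, and both sets of libraries left out 1, 0 and 0. DESeq2 called 1185 genes and no filter left 1 member. Single libraries gave 51 (without C 12) to 1110 (without C 1), 1 to 11 and 0 to 3.

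In TWSD against C (167 genes, 2 pathway genes, 0 members) library totals gave 96 and 0, no filter 92 and 0, voom 0 and 0, C 8, C 11 and C 12 left out 20 and 0, and T 1 left out besides 71 and 0. DESeq2 called 1995 and 15, DESeq2 size factors left 1 pathway gene and filterByExpr 0. Single libraries gave 0 (without TWSD 2) to 2786 (without TWSD 3) genes, 0 to 14 pathway genes and 0 to 2 members. TWSD against T called 7 genes, and 4 with DESeq2 size factors, library totals or filterByExpr, 3 with no filter, 583 with DESeq2, 0 with voom, 275 without C 8, C 11 and C 12 and 273 without T 1 besides. TWSD against WSD called 7, and 4 with library totals, 3 with no filter, 574 with DESeq2, 0 with voom, and 335 and 476 in those 2 sets. Without TWSD 3 these rose to 2479 and 2578 genes with 2 members each, and without TWSD 2 they were 0 and 0. T against WSD called 0, DESeq2 6, and single libraries left out 0. The interaction called 10 genes, 5 with library totals, 4 with no filter, 6 with filterByExpr, 395 with DESeq2, 0 with voom and 3 without C 8, C 11 and C 12. Single libraries gave 0 to 2245 genes and 0 to 1 member.

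Directions turned as follows, with log2 changes. In T against C REL was at 0.038 and CHUK at 0.13 with library totals, and voom gave GADD45B 0.77, REL 0.30 and CHUK 0.35. Without C 8, C 11 and C 12 (and T 1 besides) PDLIM2 was at 0.26 (0.10), GADD45B 0.27 (0.33), PTGS2 7.35 (7.51), NFKB1 0.66 (0.69), CHUK 0.28 (0.27) and TNFAIP3 0.41 (0.35), and IKBKG at 0.10 in the smaller set. For PTGS2 the controls left, C 1 and C 2, had 0 counts, so the size of its change has no measured control level behind it. T libraries held 0 to 7.371 CPM of PTGS2. In WSD against C CHUK was at 0.084 with library totals and 0.23 with voom, and GADD45B at 0.56 with voom. Without C 8, C 11 and C 12 (and T 1 besides) PDLIM2 was at 0.20 (0.17), GADD45B 0.15 (0.13), XIAP 0.35 (0.33), NFKB1 0.50 (0.46), CHUK 0.25 (0.24) and TNFAIP3 0.56 (0.53). In TWSD against C NFKB1 was at 0.29 (0.28) and TNFAIP3 at 0.23 (0.23). Over single libraries left out, T against C ranged for GADD45B from -3.18 to 0.69, IKBKG -2.10 to 0.11, REL -0.44 to 0.30 and CHUK -0.34 to 0.34. WSD against C ranged for GADD45B from -3.30 to 0.57, CHUK -0.36 to 0.32 and TNFAIP3 -0.67 to 0.00022, and IKBKB in TWSD against C from -1.28 to 0.068. The RELA description in TWSD against C ranged from -6.54 to -4.88 over single libraries, from -4.74 to -3.31 against T, from -5.03 to -3.60 against WSD, and from -3.23 to -1.81 in the interaction.

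Whether the numbers in the labels pair the libraries is not given. Of 16 same-numbered pairs 3 correlated over 0.1 (range -0.376 to 0.222), and these values alone cannot exclude a shared parent or batch. A replicate block gave 0 genes, 0 pathway genes and 0 members in T, WSD and TWSD against C, and 0 genes in TWSD against T, against WSD and in the interaction. With the block, T against C turned for GADD45B (0.51), IKBKG (0.64) and CHUK (0.22), and WSD against C for IKBKG (0.35), GADD45B (0.50), NFKBIA (0.092) and CHUK (0.16).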
